A study of Rattus norvegicus with 4 samples.

Results

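The LDL receptor family is a group of cell-surface receptors that bind lipoproteins and secreted proteins, and Lrp8 was the member whose ribosome footprints differed most after knockdown of Cpeb4. The genes described here were taken by symbol from a list of 9 family genes. That list was chosen by the large siCpeb4 to control difference in Lrp8 footprints, to which its relatives were added with their own differences already known. Of the 9, 8 were found among the 22250 genes of the count tables: Lrp8, Vldlr, Lrp1, Lrp2, Lrp4, Lrp5, Lrp6 and Lrp10. The other listed gene, Sorl1, was not analysed here. Because that difference chose the list, it is described below without p-values for these 8 genes, and nothing is supported with it.

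Receptors of this family share repeats that can bind ligand. Most, but not all, also have propeller domains, which in some of them release ligand in acidic endosomes. Most have a short cytoplasmic tail that recruits endocytic and signalling adaptors. Lrp8 (also called ApoER2) and Vldlr are the receptors for Reelin and for lipoproteins rich in apolipoprotein E, and in heart muscle Vldlr is known for uptake of triglyceride-rich lipoproteins. Lrp1 and Lrp2 are very large scavenger receptors, Lrp5 and Lrp6 are Wnt co-receptors, Lrp4 is the agrin receptor of the neuromuscular junction, and Lrp10 is a smaller relative found in the Golgi and endosomes.

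The libraries were made from primary ventricular cardiomyocytes of newborn Wistar rats, 1 to 2 days old. The siCpeb4 group received an siRNA against Cpeb4, and the control group a control siRNA, for 72 h and with 2 libraries each. Cpeb4 is a protein that binds mRNA and regulates its translation. The growth protocol also names Torin1, an inhibitor of the kinase mTOR, at 250 nM for 24 h without saying which cells received it, so all 4 libraries may share it. Ribosome-protected fragments came from an RNase I digest of polysome fractions, although the labels give polyA RNA as the molecule. Whether the replicates are separate cultures is not stated, so the spread behind every p-value may be technical. Matched RNA levels were not used here, so a change in mRNA amount and a change in translation per mRNA cannot be told apart.

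Gene counts summed to 4889212 and 5910911 in the siCpeb4 libraries and to 5863879 and 3554011 in the controls. Cpeb4 itself had 40 and 59 counts in siCpeb4 libraries, against 351 and 253 in controls, so the labels and the target matched. The cardiomyocyte markers were abundant in each library: 9 of the 10 were found, and they summed to 48690 to 54292 CPM (footprint counts scaled to a common library total) in siCpeb4 libraries and to 46586 to 51238 CPM in controls. The names of the deposited files give a length window of 29 to 34 nt, except for siCpeb4 replicate 2, whose window ends at 33 nt.

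Lrp8 was scarce in control cells and about 4 times higher after Cpeb4 siRNA. It had 83 and 114 counts in siCpeb4 replicates 1 and 2, against 29 and 12 in control replicates 1 and 2. Scaled to library totals, this is 17.0 and 19.3 CPM in siCpeb4 libraries and 4.95 and 3.38 CPM in controls. Both siCpeb4 libraries thus lay far above both controls. The mean level was 18.1 ± 1.63 CPM in siCpeb4 and 4.16 ± 1.11 CPM in control libraries (SD, n = 2 each). The fitted log2 fold change was 2.04 ± 0.27 (SE), which is 4.11-fold.

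The depth sets how precisely each of these levels is known. The exact 95% Poisson intervals of the Lrp8 level were 13.5 to 21.0 and 15.9 to 23.2 CPM in siCpeb4 libraries, and 3.31 to 7.10 and 1.74 to 5.90 CPM in controls. These intervals cover counting error only, and replicates of these groups spread more widely than counting error over all genes. Since the Lrp8 difference chose the list, the intervals are given as the precision of each level and not as a test of it. Taking each siCpeb4 library against each control, the ratio of CPM values ran from 3.43 to 5.71. With 1 library left out at a time the log2 fold change lay between 1.85, without control replicate 2, and 2.38, without control replicate 1. Without siCpeb4 replicate 2, the library with the narrower length window, it was 1.95.

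**Figure D1:**
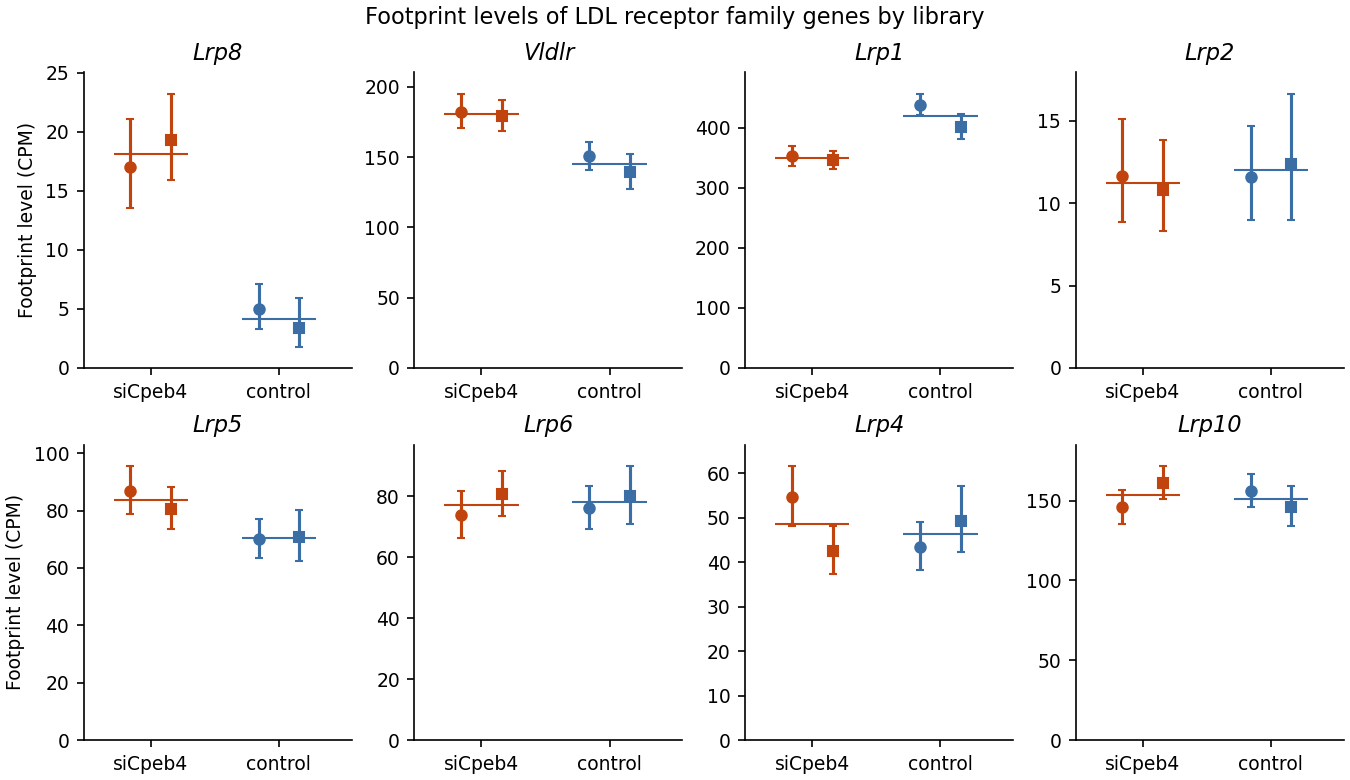
Footprint level in CPM on the vertical axis (each panel has its own scale, starting at 0) for the 8 family genes in siCpeb4 and control libraries; circles are replicate 1, squares replicate 2, bars the exact 95% Poisson intervals and horizontal lines the group means. Lrp8 stands at 17.0 and 19.3 CPM in siCpeb4 libraries, against 4.95 and 3.38 CPM in controls, while the other panels show small differences or none beyond the spread of the replicates.

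In the whole-table fit (the quasi-likelihood test of edgeR), Lrp8 was the 1 member called of the 8 tested, that is 1 higher and 0 lower at an adjusted p under 0.05. The background in that comparison is 3.41% of 11335 tested genes called, of which 1.54% of tested genes were higher and 1.87% lower. Since the list was built around Lrp8, nothing is read from this count. By the size of its log2 fold change Lrp8 ranked 4 of all 11335 genes, and 2 among the increases. All 8 members passed the low-count filter, so no member was left out of the fit. The 7 members other than Lrp8 had log2 fold changes between -0.30 and 0.29, and the median of all 8 was 0.01, beside -0.0031 over all genes tested.

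Vldlr, the closest relative of Lrp8 in this list and its partner in Reelin reception, was slightly higher after Cpeb4 siRNA without being called. It had 892 and 1061 counts in siCpeb4 libraries and 883 and 495 in controls. Its level was 182 and 179 CPM in siCpeb4 libraries, against 151 and 139 CPM in controls. The groups did not overlap, and the replicates of each group lay close together. The mean was 181 ± 2.08 CPM in siCpeb4 and 145 ± 7.99 CPM in control libraries (SD, n = 2 each), with a log2 fold change of 0.29 ± 0.11 (SE). A change of that size was not rare, as 28.5% of all tested genes had a larger one in either direction.

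Lrp1, the scavenger receptor that clears proteases, matrix proteins and lipoprotein remnants, was the 1 member with lower levels in both siCpeb4 libraries. Its counts were 1727 and 2048 in siCpeb4 libraries and 2574 and 1429 in controls. Its level was 353 and 346 CPM in siCpeb4 libraries, against 439 and 402 CPM in controls. The siCpeb4 libraries were almost equal and both below the lower control. The mean was 350 ± 4.77 CPM in siCpeb4 and 421 ± 26.1 CPM in control libraries (SD, n = 2 each), with a log2 fold change of -0.30 ± 0.10 (SE), which was not called. Of all tested genes, 27.5% had a larger change.

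The summed level of fibroblast markers was lower in siCpeb4 libraries, and fibroblasts are rich in Lrp1 in many tissues. The 10 markers on the list summed to 12190 and 12282 CPM in siCpeb4 libraries, against 17828 and 16171 CPM in controls. In edgeR, 3 of the 9 tested markers fell, namely Col1a1, Fn1 and Fbln2, and none rose, beside 3.41% of all genes tested called. The median log2 fold change of the 9 was -0.29. Col3a1 and Pdgfra were lower in both siCpeb4 libraries without being called. Dcn, Lum, Postn and Tcf21 overlapped between the groups, and Tcf21 had a log2 fold change of 0.10. Much of the sum came from Col1a1, at 6072 and 5374 CPM in siCpeb4 libraries, against 8586 and 7867 CPM in controls. Col1a2 was at 0 in each library although Col1a1 was abundant, so a 0 in all 4 libraries is not read as absence of a gene. Fewer cells of a type, less RNA per cell and less translation per RNA cannot be told apart in such bulk footprint libraries. Other marker lists did not all go the same way, and none held a called gene. The smooth muscle and pericyte sum was higher in siCpeb4 libraries, at 5709 and 6062 CPM, against 5377 and 5432 CPM in controls. The macrophage and leukocyte sum overlapped, at 463 and 556 CPM, against 640 and 454 CPM, as did the endothelial sum. The epicardial sum was lower, at 284 and 254 CPM, against 312 and 332 CPM. The part of fibroblasts or of any other cell type in the Lrp1 level was not tested. For Lrp8, a gene known mainly from neurons, the neuronal and Schwann cell markers were low and overlapped between the groups. Their 6 genes summed to 35.4 and 45.5 CPM in siCpeb4 libraries and to 50.8 and 43.9 CPM in controls. Snap25 and Sox10 were at 0 in all 4 libraries, which, as for Col1a2, is not read as absence. Elavl4 had 1 and 2 counts in siCpeb4 libraries and 3 and 3 in controls, so the sum was nearly all the tubulin Tubb3, which was not called.

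Lrp2, or megalin, a receptor best known from kidney and other absorptive epithelia, was scarce and showed no difference beyond the replicate spread. It had 57 and 64 counts in siCpeb4 libraries and 68 and 44 in controls. That is 11.7 and 10.8 CPM in siCpeb4 libraries, against 11.6 and 12.4 CPM in controls, and the groups overlapped. The log2 fold change was -0.12 ± 0.24 (SE). Its counts lay between those of Lrp8 in the 2 groups, and its SE was the largest of the 8 after that of Lrp8, so a small change was not detectable at this depth.

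The Wnt co-receptors Lrp5 and Lrp6 differed little between the groups. Lrp5 had 86.7 and 80.5 CPM in siCpeb4 libraries, against 69.9 and 70.9 CPM in controls, from 252 counts or more in each library. Both siCpeb4 libraries were above both controls, with a log2 fold change of 0.22 ± 0.12 (SE), which was not called. Lrp6, its paralogue, had 73.8 and 80.7 CPM in siCpeb4 libraries, against 76.1 and 79.9 CPM in controls. These values overlapped, and the log2 fold change was -0.04 ± 0.12 (SE).

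Lrp4 had 54.6 and 42.5 CPM in siCpeb4 libraries, against 43.5 and 49.2 CPM in controls. The groups overlapped and the siCpeb4 replicates were further apart than the group means, with a log2 fold change of 0.04 ± 0.15 (SE). Its direction depended on the libraries, since it ran from -0.15 to 0.23 with 1 library left out. Lrp10 had 146 and 161 CPM in siCpeb4 libraries, against 156 and 146 CPM in controls. These overlapped as well, with a log2 fold change of -0.01 ± 0.11 (SE), and for Lrp6 and Lrp10 the sign likewise changed when 1 library was left out.

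**Figure D2:**
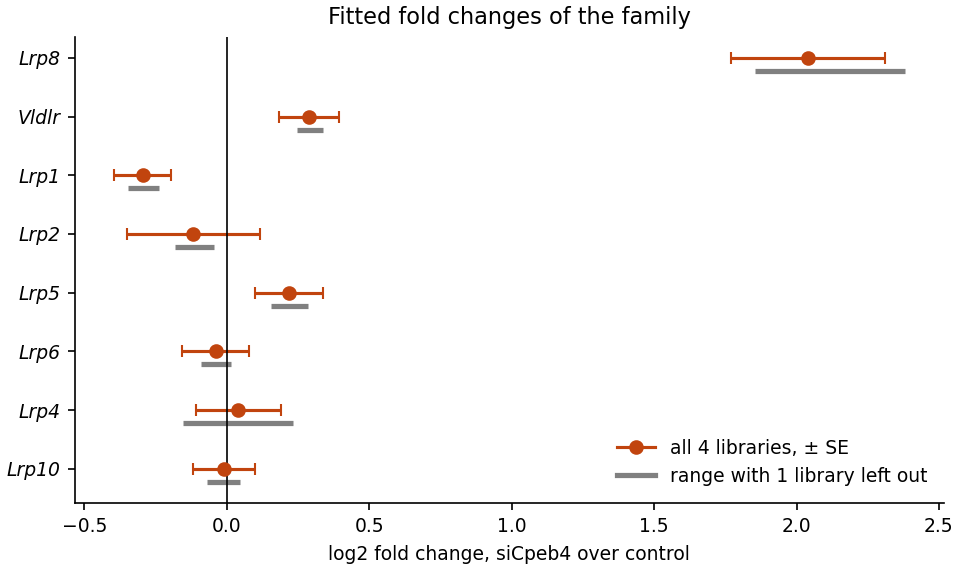
Fitted log2 fold change, siCpeb4 over control, on the horizontal axis for each family gene; points are the values from all 4 libraries with bars of 1 SE, and grey lines the range with 1 library left out. Lrp8 lies at 2.04, apart from the other 7 genes between -0.30 and 0.29, and the grey lines of Lrp4, Lrp6 and Lrp10 cross 0.

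In all, the groups did not overlap for 4 of the 8 members, with 3 higher (Lrp8, Vldlr and Lrp5) and 1 lower (Lrp1) in siCpeb4 libraries. Of all genes tested, 46.0% did not overlap, with 26.5% higher and 19.5% lower, and nothing is read from the members' count, which is near that background. The replicates of the members were close. On the log2 scale, replicate 2 differed from replicate 1 by -0.36 (Lrp4) to 0.18 (Lrp8) in siCpeb4 libraries and by -0.55 (Lrp8) to 0.18 (Lrp4) in controls. The widest of these differences was that of the Lrp8 controls, which rested on 29 and 12 counts.

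Ratios of 2 genes within a library do not depend on how libraries are scaled. Per 100 footprints of Vldlr there were 9.30 and 10.7 footprints of Lrp8 in siCpeb4 libraries, against 3.28 and 2.42 in controls. Per 100 footprints of Lrp1 there were 51.7 and 51.8 of Vldlr in siCpeb4 libraries, against 34.3 and 34.6 in controls. The Vldlr to Lrp1 ratio was nearly the same within each group. Vldlr and Lrp1 had the highest and lowest log2 fold changes of the 7 members other than Lrp8, and neither was called. A ratio of these 2 that separates the groups therefore follows from their levels, and nothing is read from it. Per 100 footprints of Lrp6 there were 117 and 99.8 of Lrp5 in siCpeb4 libraries, against 91.9 and 88.7 in controls. These are ratios of counts, which also carry the genes' lengths, and no levels are ranked between genes because coding lengths were not used here.

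**Figure D3:**
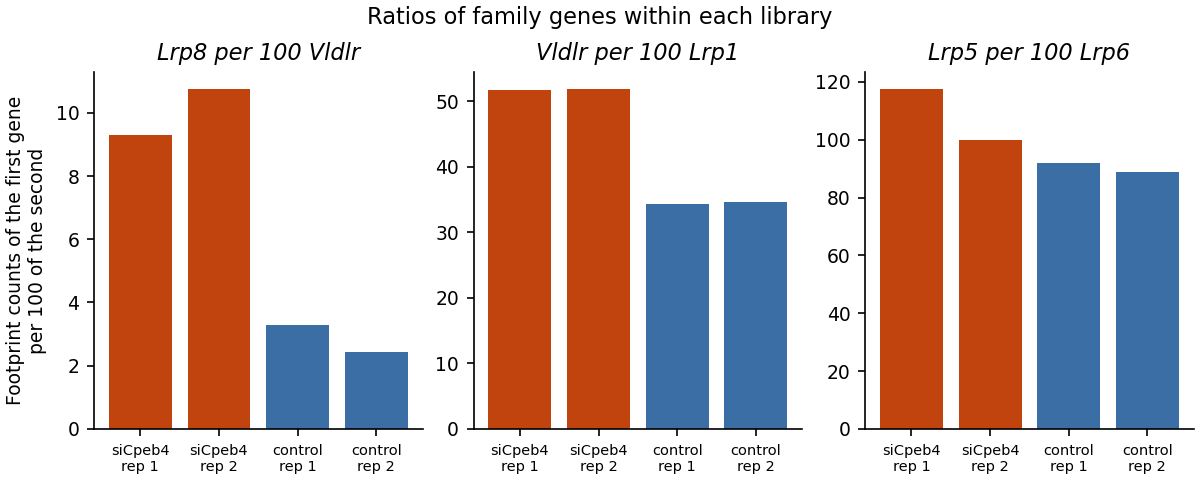
Footprint counts of one family gene per 100 counts of another, within each of the 2 siCpeb4 and 2 control libraries (bars, vertical axes from 0). Lrp8 per 100 Vldlr is 9.30 and 10.7 in siCpeb4 libraries, against 3.28 and 2.42 in controls, and Vldlr per 100 Lrp1 is 51.7 and 51.8, against 34.3 and 34.6.

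The sum over the 8 members hid these differences. It was 925 and 921 CPM in siCpeb4 libraries, against 952 and 903 CPM in controls. The higher Vldlr, Lrp5 and Lrp8 and the lower Lrp1 left the total in the same range. Lrp8 made up 1.83% and 2.09% of the members' footprints in siCpeb4 libraries, against 0.520% and 0.374% in controls.

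Tested genes with a placeholder name or a repeated symbol were left out of the search for patterns like that of Lrp8. Of the others, the 5 nearest to Lrp8 over the 4 libraries were Pirt, Loxl4, Rnf2, Wrb and Ttr. Nearness was the Euclidean distance between log2(CPM + 0.5) values centred on each gene's mean, and with 4 libraries it mostly finds genes with a difference of similar size. Loxl4, a lysyl oxidase homologue, had 51 and 51 counts in siCpeb4 libraries, against 17 and 7 in controls, at a distance of 0.39. Rnf2, a Polycomb ubiquitin ligase, had 535 and 689 counts, against 242 and 129, at 0.53. Pirt, a regulator of TRP channels, was nearest at 0.37 but rested on 11 and 15 counts in siCpeb4 libraries and 3 and 0 in controls. Wrb, part of a receptor for tail-anchored proteins, lay at 0.67, and Ttr, the thyroid hormone carrier transthyretin, at 0.78 with 20 counts or fewer in each library.

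Genes that act with the family were taken from 6 lists, with 98 of 123 genes tested. In edgeR 3 of these rose and 2 fell. Of all 11335 genes tested, 1.54% rose and 1.87% fell, which is the background for this count and for those of the single lists below. Nothing is read from the counts themselves. No gene of the family outside the 9 listed was called. Lrp12, a smaller relative, had 39.9 and 41.4 CPM in siCpeb4 libraries, against 35.8 and 32.1 CPM in controls (log2 fold change 0.22 ± 0.14 SE, edgeR adjusted p = 0.48). Lrp11 and Ldlrad3 had under 25 counts in each library, with log2 fold changes of 0.34 ± 0.43 and -0.20 ± 0.46. Of the 5 family genes tested, 0 were called and 0 had an unadjusted edgeR p under 0.05, as 16.1% of all genes tested had.

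Among 19 tested ligands, 2 fell and 0 rose, and the median log2 fold change was -0.10. Ccn2, a matricellular growth factor that binds Lrp1, had 1643 and 1786 CPM in siCpeb4 libraries, against 2537 and 2326 CPM in controls (-0.53 ± 0.10 SE, edgeR adjusted p = 0.00265). Both siCpeb4 libraries were below both controls. Leaving out control replicate 1 ended the call of Ccn2 (edgeR adjusted p = 0.056).

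The other abundant ligands did not pass. Thbs1, a matrix glycoprotein taken up by Lrp1, had 2018 and 2603 CPM in siCpeb4 libraries, against 2952 and 2543 CPM in controls (-0.28 ± 0.11 SE, edgeR adjusted p = 0.21). Clu, the chaperone clusterin, had 2193 and 2393 CPM, against 2789 and 2488 CPM (-0.23 ± 0.10 SE, edgeR adjusted p = 0.25). The chief ligands of Lrp8 and Vldlr were also looked at, beyond the rule for named genes. Apoe had 1274 and 1036 CPM in siCpeb4 libraries, against 1346 and 1082 CPM in controls, with replicates further apart than the groups. Reln, which encodes Reelin, had 41 and 23 counts in siCpeb4 libraries, against 32 and 12 in controls, and was not called (edgeR adjusted p = 0.72). Selenop, the selenium carrier that Lrp8 takes up in several tissues, had 52.6 and 40.3 CPM, against 43.1 and 39.1 CPM, and the groups overlapped.

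Among 23 tested chaperones, adaptors and enzymes that shed or degrade the receptors, 1 rose and 0 fell, and the median was 0.07. Adam10, a membrane protease that sheds many surface proteins, had 244 and 278 CPM in siCpeb4 libraries, against 183 and 176 CPM in controls (0.51 ± 0.11 SE, edgeR adjusted p = 0.00705). That call ended without control replicate 2 (edgeR adjusted p = 0.072) or siCpeb4 replicate 2 (0.055). The retromer subunit Vps35 (0.17 ± 0.11) and the endocytic adaptor Dab2 (0.25 ± 0.11) were not called (edgeR adjusted p = 0.45 and 0.28). The family's folding chaperones, named beyond the rule, were level for Lrpap1 at 80.0 and 84.4 CPM in siCpeb4 libraries, against 82.2 and 78.2 CPM in controls. Mesd, the chaperone of Lrp5 and Lrp6, had 88.6 and 90.3 CPM, against 110 and 90.9 CPM (-0.21 ± 0.12 SE, edgeR adjusted p = 0.42).

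Of 15 tested genes downstream of Reelin, 2 rose and 0 fell, with a median of 0.03. Fyn, the Src family kinase that phosphorylates the adaptor Dab1, had 38.0 and 37.9 CPM in siCpeb4 libraries, against 25.4 and 19.1 CPM in controls (0.71 ± 0.17 SE, edgeR adjusted p = 0.0156). Crk, an adaptor that binds phosphorylated Dab1, had 77.3 and 82.1 CPM, against 55.4 and 56.6 CPM (0.48 ± 0.12 SE, edgeR adjusted p = 0.0281). Both genes also serve many other receptors. Dab1 itself had 0 and 0 counts in siCpeb4 libraries and 1 and 0 in controls, so the adaptor that carries the Reelin signal was at or near 0 in these libraries. Pafah1b1 (-0.18 ± 0.10) and Cfl1 (-0.03 ± 0.12) were not called (edgeR adjusted p = 0.42 and 0.95). The Fyn call was kept without control replicate 1 but not without any other library (edgeR adjusted p between 0.058 and 0.17). The Crk call was kept without siCpeb4 replicate 1 but not without any other library (edgeR adjusted p between 0.10 and 0.24). DESeq2 called neither (adjusted p = 0.11 for Fyn and 0.15 for Crk).

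The partners of the Wnt and agrin receptors held 23 tested genes and a median of 0.12, and 0 were called by edgeR. Of the 23, 5 had an unadjusted edgeR p under 0.05, beside 16.1% of all genes tested. The Wnt receptor Fzd1 had 973 and 898 CPM in siCpeb4 libraries, against 738 and 727 CPM in controls (0.32 ± 0.10 SE, edgeR adjusted p = 0.081). Fzd3 had 49 and 51 counts, against 26 and 20 (0.88 ± 0.30 SE, edgeR adjusted p = 0.12). Ctnnb1, which encodes β-catenin, and the kinase Gsk3b had log2 fold changes of 0.19 ± 0.10 and 0.22 ± 0.11 (edgeR adjusted p = 0.34 and 0.35). Of 13 genes of sterol control, 0 were called and 0 had an unadjusted edgeR p under 0.05, with a median of -0.07. Among them Srebf2, the master regulator of cholesterol genes, had 133 and 155 CPM in siCpeb4 libraries, against 151 and 153 CPM in controls, and Hmgcs1 had 235 and 262 CPM, against 234 and 234 CPM. Ppara (0.18 ± 0.13) and Insig1 (-0.31 ± 0.23) had the smallest p of that list (edgeR adjusted p = 0.53 and 0.55).

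**Figure D4:**
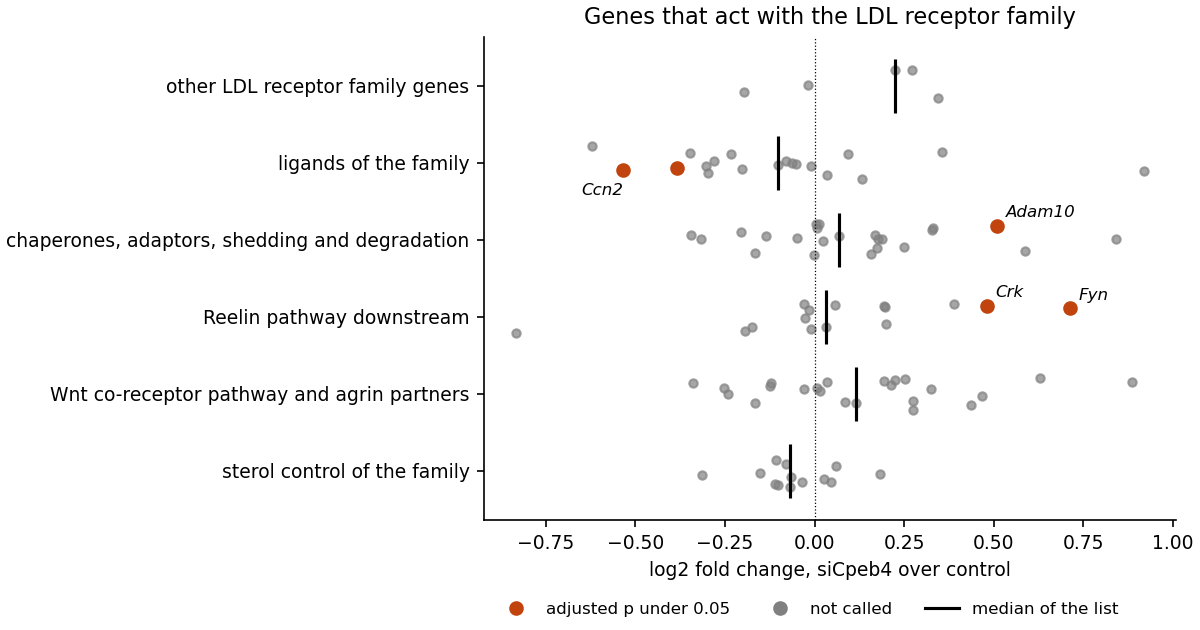
Log2 fold change, siCpeb4 over control, of each tested gene (points) in 6 lists of genes that act with the LDL receptor family; coloured points have an edgeR adjusted p under 0.05 and black lines are list medians, and the vertical scatter within a list has no meaning. Of the 5 called genes, Fyn, Crk and Adam10 lie on the right and Ccn2 on the left, and list medians lie between -0.10 and 0.22.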

How the data were processed

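Raw footprint counts per Ensembl gene were deposited by the authors for 4 libraries, without normalisation. The submitters' processing notes name the rat build Rnor_6.0 and the tools STAR 2.7, HTSeq 0.12 and Bowtie2. Their roles and the strand setting are not given in the sources used here, so reads of overlapping or antisense genes cannot be told apart. The 5 summary lines of each table were left out of library sizes; reads without a feature made up 4.42% to 4.63%. Counts of replicates spread beyond sampling noise (chi-square per degree of freedom 5.32 for siCpeb4 and 3.00 for control).

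CPM values were scaled to the library total. The fit over 11335 genes used edgeR 4.0.16 in R 4.3.3 with TMM scaling, filterByExpr (minimum count 10), the group as its only term, the two-sided quasi-likelihood test and Benjamini-Hochberg adjustment, with calls at 0.05. SEs come from the F statistic. Members and lists were chosen with earlier results of these data known. The text names all members, Cpeb4, each called gene of a list or otherwise the 2 with the smallest p, up to 2 further abundant genes per list, raw counts for genes under the filter, and 5 genes near Lrp8. Apoe, Reln, Selenop, Lrpap1, Mesd and the cell type markers Col1a1, Fn1, Fbln2, Col1a2, Snap25, Sox10, Elavl4 and Tubb3 were named after their values were seen. So were the markers Col3a1, Pdgfra, Dcn, Lum, Postn and Tcf21. Of the lists, 7 genes were not analysed here, and some single-gene values, a called ligand among them, are not reported here. Alternatives were other scalings, DESeq2 1.42.0, limma-voom (limma 3.58.1), other filters, a replicate block, each library left out and a threshold of 0.10. On simulated data for the siCpeb4 comparison (11335 genes), the test recovered 52% of genes changed 1.5-fold and 100% of those changed 4-fold, and 6 of 170 calls were false.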

Additional observations from a re-analysis of the deposited data

How the results depend on the processing

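The Lrp8 call was kept in each alternative with all 4 libraries that gave it an adjusted p. The threshold of 0.10 uses the main fit and could not end the call. With these alternatives and with 1 library left out, the log2 fold changes of Lrp8 lay between 1.85 and 2.38. As the Lrp8 difference in the same libraries chose the list, nothing is supported with this. DESeq2 gave Lrp8 no adjusted p, as its own filter left out 3077 genes, and its log2 fold change there was 2.06 ± 0.41 (SE). The other 7 members were called in none of their alternatives. Over all genes, 386 calls became 179 in DESeq2, 606 without the low-count filter and 629 at a threshold of 0.10, and 212 to 318 with 1 library left out, the lowest without control replicate 1. The ligand list, with 2 calls, had 1 with scaling to the library total, with upper-quartile scaling, with at least 30 counts in 2 libraries and with the replicate block, and 0 to 4 with 1 library left out. The list of chaperones, adaptors and shedding enzymes, with 1 call, had 2 without the low-count filter and at a threshold of 0.10, and 0 to 2 with 1 library left out. The Reelin list, with 2 calls, had 0 in DESeq2 and 0 to 1 with 1 library left out. The Wnt and agrin list, with 0 calls, had 1, Fzd1, without the low-count filter and at a threshold of 0.10. The cause of these changes was not tested, apart from the thresholds and the numbers of genes and samples that the settings themselves change. Replicate numbers are shared between groups but not said to pair the libraries, and replicate differences of the groups correlated at -0.11 over genes. With the replicate block 403 genes were called, and it changed no member's call. With the pairs crossed, an alternative chosen after seeing the data, 481 genes were called. Levels per coding length were not run. The low counts of Lrp8 in controls and of Lrp2 limit their precision.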
